A study of Bos taurus with 12 samples.

Results

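MiR-423 is a microRNA (miRNA) whose single hairpin precursor, bta-mir-423 in cattle, releases one mature strand from each arm: miR-423-5p and miR-423-3p. Both mature strands, bta-miR-423-5p and bta-miR-423-3p, were taken by name from the deposited expression table, and these 2 were followed among the 388 mature miRNAs that the table holds in 426 entries of a mature miRNA with its precursor. Each arm had 1 entry, so no choice between precursors was needed. Mammary gland biopsies of 12 Chinese Holstein cows, each a different animal, were profiled by small RNA sequencing in 4 groups of 3. HP and LP cows had a high or a low milk protein percentage and were sampled in lactation, while HD and LD cows had a high or a low milk protein percentage and were sampled in the non-lactating period. All groups share the breed and the tissue, and the milk phenotype was set from records of the preceding lactation. The age of single cows is not given in the labels. Both arms were chosen by their levels, which were known to be high in HP, so every HP against LP value of miR-423 below is a description without a test. The same holds for the values of lactation against the non-lactating period, since HP and LP form its lactation side, and HD against LD is the comparison in which miR-423 was tested.

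A miRNA hairpin is cut by Drosha in the nucleus and by Dicer in the cytoplasm into a short duplex, and one strand of it is loaded into an Argonaute protein, where it pairs with target mRNAs and lowers their translation or stability. Most hairpins load mainly one arm, but some yield stable miRNAs from both, and then the ratio of the arms is a quantity of its own, since the arms carry different seeds and bind different targets. MiR-423 is one of these precursors with both arms in use, is expressed in many tissues, and its 5p arm is known as a circulating miRNA studied in heart failure. Transcription of the precursor shares a locus with a protein-coding gene: in the RefSeq annotation of the bovine assembly ARS-UCD2.0, MIR423 lies within NSRP1, which encodes a splicing regulator of nuclear speckles, and between EFCAB5 and the serotonin transporter gene SLC6A4.

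Levels are given as RPM, reads of a miRNA scaled to the miRNA reads of its library (each library sums to nearly the same total), which the authors call TPM. The spacing of the values put the libraries between 6026620 and 23577193 miRNA reads, summed over the entries of the table. These sums count reads assigned to miRNAs and are not the number of reads sequenced. Lactation libraries held 6026620 to 13373813 miRNA reads and non-lactating libraries 11047232 to 23577193. As a floor, 3 reads corresponded to 0.127 to 0.498 RPM. Both arms were far above that floor, with 4064 to 16885 reads of miR-423-5p and 6389 to 23574 reads of miR-423-3p per library. Normalized RPM below are RPM divided by a median-of-ratios size factor, which ran from 0.764 in LD replicate 2 to 1.50 in HD replicate 1 and LD replicate 1. Markers of mammary epithelium (the miR-200 family with miR-148a, miR-205 and miR-375) were present in every library and summed to 31079 RPM or more. Each biopsy mixes cell types, and fewer cells of a type and less RNA per cell cannot be told apart.

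MiR-423-5p stood highest in the 3 HP libraries. Its normalized RPM was 2183, 1405 and 1164 in HP replicates 1, 2 and 3, and 683, 554 and 547 in LP replicates 1, 2 and 3. It was 621, 591.5 and 593 in the HD libraries and 711, 500.4 and 319 in the LD libraries. Every HP library lay above each of the 9 others, whereas the LP, HD and LD libraries overlapped one another. As means, the order was HP at 1584 ± 533 (SD, n = 3), then HD at 602 ± 16.9, LP at 595 ± 76.7 and LD at 510.1 ± 196, and the last 3 groups did not separate beyond their spread. The HD libraries were the closest to each other and the LD libraries the most scattered outside HP.

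MiR-423-3p had the same leading group, with a larger spread within HP. Its normalized RPM was 2655, 1224 and 1212 in HP replicates 1, 2 and 3, and 827, 970.0 and 859.7 in LP replicates 1, 2 and 3. It was 963, 823 and 770.3 in the HD libraries and 1097, 609 and 653 in the LD libraries. The 3 HP libraries again lay above the 9 others, with LD replicate 1, at 1097, the nearest to HP replicates 2 and 3. The order of means was HP at 1697 ± 829 (SD, n = 3), LP at 885 ± 75.0, HD at 852 ± 99.6 and LD at 786 ± 270.0, and LP, HD and LD overlapped. A separation of HP from all 9 other libraries was seen for 15 of the 388 miRNAs (3.87%), and since HP against LP served to choose both arms, nothing is read from their being among them. Without the size factors the separation of the 5p arm held, with 1280 to 2071 RPM in HP and at most 1067 RPM elsewhere. That of the 3p arm did not, since the deposited RPM of LD replicate 1 was 1645 and that of HD replicate 1 was 1444, against 1200.3 and 1333 in HP replicates 2 and 3.

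**Figure D1:**
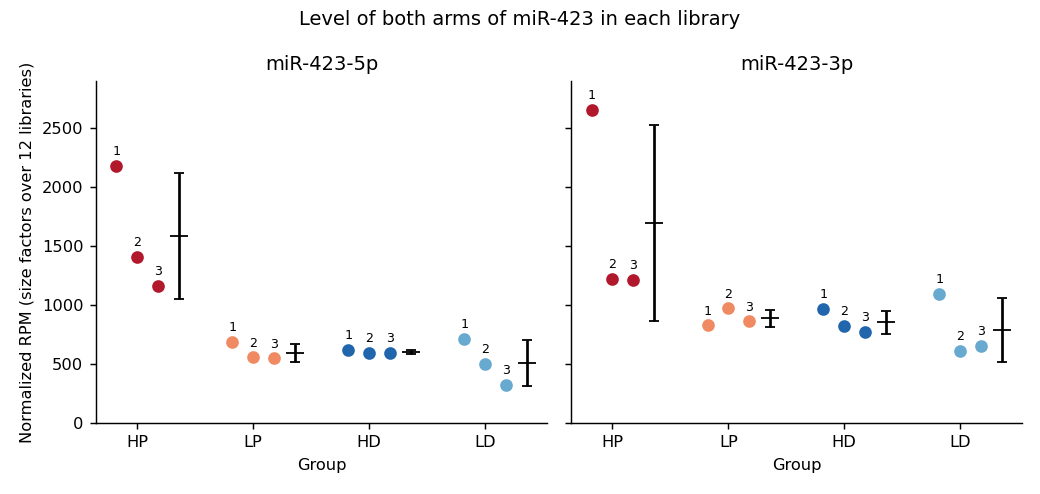
Normalized RPM of miR-423-5p (left) and miR-423-3p (right) in each of the 12 libraries, by group, with replicate numbers above the points and the mean with its SD (n = 3) as bars. All 3 HP points lie above the other 9 points in both panels, and HP replicate 1, at 2183 and 2655, is the highest.

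Within lactation, the log2 fold change of HP over LP on the scale of log2(normalized RPM + 1) was 1.42 (SE 0.28) for miR-423-5p, a 2.67-fold higher level in HP, and 0.89 (SE 0.33) for miR-423-3p, a 1.85-fold higher level. By size these were the 3rd and the 14th highest log2 fold changes of the 388 miRNAs, whose median was 0.01. The difference of the 3p arm leaned on HP replicate 1, without which it was 0.52, while the 5p difference without that library was 1.16. For scale, 39 of 388 miRNAs (10.1%) met the rule of the study for differential expression (unadjusted p under 0.05, log2 fold change beyond 0.8 in size), 16 (4.12%) with the higher level in HP; without LP replicate 1, 24 passed. With the Benjamini-Hochberg adjusted p of limma under 0.05, 1 of 388 (0.258%) remained in this comparison of 3 against 3 cows. Libraries of HP all above those of LP were found for 33 of 388 miRNAs (8.51%), and a separation in either direction for 80 (20.6%).

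The HP and LP biopsies also differed in markers of other cells. Erythroid miRNAs (miR-451, miR-144, miR-486 and miR-16a) summed to 2004 to 3629 RPM in HP and 4334 to 4925 RPM in LP, and 3 of the 4 passed the rule with lower values in HP. Smooth muscle and stromal miRNAs summed to 93688 to 141510.3 RPM in HP and 157883 to 196455 RPM in LP, with 1 of 6, miR-143, lower by the rule. Neither sum overlapped between the groups, and among single miRNAs 80 of 388 (20.6%) had HP and LP libraries without overlap. The median log2 fold change of the 6 was 0.03, against -1.25 for the 4 erythroid miRNAs. No marker of either list was at 0 in any library. Leukocyte miRNAs overlapped, at 6159 to 9292 RPM in HP and 6337 to 7971 RPM in LP, with 1 of 7 higher in HP, the lymphocyte miRNA miR-150, and 2 lower, miR-146a and miR-146b. Epithelial sums overlapped as well, at 180889 to 202174 RPM in HP and 143945 to 236848 RPM in LP, with 0 of 8 past the rule. Of the skeletal muscle markers 0 of 3 passed, and of the endothelial ones 0 of 2. These counts stand beside 39 of 388 miRNAs (10.1%) past the rule, 16 (4.12%) higher in HP and 23 lower. The part of these cell types in the level of miR-423 was not tested.

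Both arms were also set against miRNAs commonly used as references in quantitative PCR (miR-103, miR-191, miR-93, miR-16a, miR-16b, miR-425-5p, let-7i, let-7a-5p, miR-30e-5p and miR-26a), which needs no size factor. Relative to each of these 10, the mean log2 level of miR-423-5p in HP exceeded that in LP by 0.90 (against let-7a-5p) to 2.56 (against miR-16a), and the 3 HP libraries lay above the 3 LP libraries for 10 of 10. For miR-423-3p the excess ran from 0.36 to 2.03 against the same reference miRNAs, and the libraries separated for 8 of 10, the exceptions being miR-191 and let-7a-5p. Both arms were chosen for the HP against LP difference, so a separation against miRNAs that moved less was largely fixed by that choice and is no support for it. MiR-16a, also one of the erythroid miRNAs, was itself lower in HP, with a log2 fold change of -1.14. It was the 1 of 10 references past the rule of the study, and the excess against it contains that fall. The size depended on which reference was taken.

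The arms were close to balanced. Of the reads of miR-423, the 5p arm held 45.1%, 53.4% and 49.0% in HP replicates 1, 2 and 3, and 45.3%, 36.4% and 38.9% in LP replicates 1, 2 and 3. It held 39.2%, 41.8% and 43.5% in the HD libraries and 39.3%, 45.1% and 32.8% in the LD libraries. The 5p arm was the more abundant in 1 of 12 libraries, HP replicate 2, where the 95% Clopper-Pearson interval of its share was 52.9% to 54.0%. These intervals cover counting error alone and were no wider than the one of LP replicate 3, from 37.9% to 39.8%, so the differences between cows of one group were larger than counting error. As a ratio of 5p to 3p, the means were 0.977 ± 0.163 (SD, n = 3) in HP, 0.711 ± 0.062 in HD, 0.678 ± 0.133 in LP and 0.653 ± 0.167 in LD. HP replicate 1, at 0.822, lay just below LP replicate 1, at 0.827, so HP and LP overlapped, and LP, HD and LD overlapped one another. HP did not overlap HD (0.645 to 0.769), while its lowest ratio and the highest one of LD, in replicate 2, were both 0.822 to 3 digits.

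**Figure D2:**
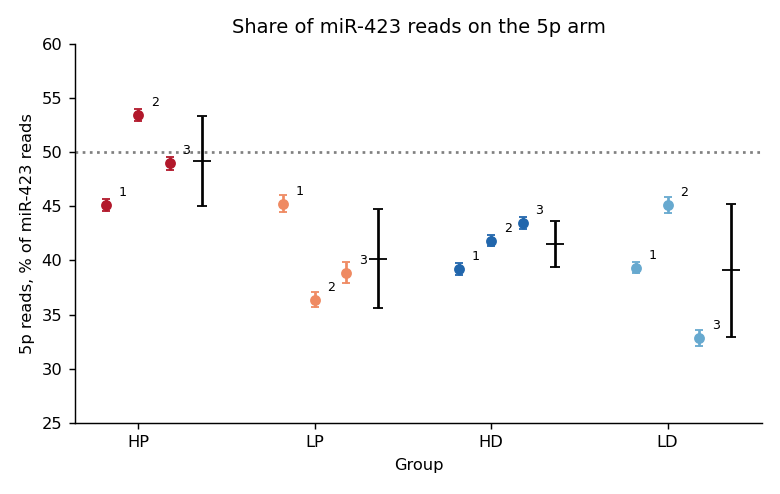
Share of the miR-423 reads that came from the 5p arm in each of the 12 libraries, in percent, with 95% Clopper-Pearson intervals on the points and the mean with its SD (n = 3) beside each group. The dotted line marks equal arms, and HP replicate 2, at 53.4%, is the only library above it; the vertical axis does not start at 0.

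The log2 ratio of 5p to 3p was 0.53 (SE 0.30) higher in HP than in LP, which is the gap between the log2 fold changes of both arms. Among the 19 precursors with both arms at a mean of at least 10 RPM, HP ratios all above LP ratios were seen for 3 (15.8%), and miR-423 was not one of them. No arm ratio of the 19 (0.0%) had an adjusted p under 0.05 by limma in this comparison, and 4 of 19 (21.1%) had an unadjusted p under 0.05. Without LP replicate 2, 3 of the 19 were called.

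In the non-lactating period the question was whether the level differed between the protein phenotypes when no milk was made. MiR-423-5p was 0.35 higher in HD than in LD on the log2 scale (SE 0.32, 1.27-fold), with an adjusted p of 0.993 by limma over the 388 miRNAs. MiR-423-3p was 0.20 higher (SE 0.29, 1.15-fold), also with an adjusted p of 0.993 by limma. The libraries of HD lay within the range of LD for the 5p and the 3p level alike. The ratio of the arms was 0.15 higher in HD on the log2 scale (SE 0.32, adjusted p = 0.824 by limma over 19 precursors). Two-sided exact permutation tests, which cannot go below 0.1 with 3 against 3, gave p = 0.5, p = 0.6 and p = 0.7 for the 5p level, the 3p level and the ratio, each 0.7 after Benjamini-Hochberg adjustment over the 6 exact tests computed, the other 3 being those of the stage, which are not read because the HP and LP libraries enter them. Across all miRNAs, 13 of 388 (3.35%) passed the rule of the study in HD against LD, 5 of them (1.29%) higher in HD, and 37 (9.54%) had libraries without overlap. Of the same 388, 0 (0.0%) had an adjusted p under 0.05 by limma and 19 (4.9%) an unadjusted p under 0.05. Neither arm was among the 13, a count that was 6 without HD replicate 2, 8 without LD replicate 2 and 36 without LD replicate 1, and the difference between HP against LP and HD against LD was not tested.

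The value of HD against LD turned on single LD cows and on the size factors. Without LD replicate 1, the LD library with the highest level of both arms, the differences were 0.59 for the 5p arm and 0.43 for the 3p arm. Without LD replicate 3, in which the 5p arm was lowest, the 5p difference was 0.06 and the log2 arm ratio was -0.04, on the other side of 0. Without size factors the differences were 0.58 for the 5p arm and 0.43 for the 3p arm. None of these values passed a threshold. Against the 10 reference miRNAs, HD minus LD ran from -0.14 to 0.74 for miR-423-5p and from -0.29 to 0.59 for miR-423-3p, and the libraries separated for 0 of 10 with either arm. The references themselves summed to 142269 to 150516 RPM in HD and 121281 to 139974 RPM in LD, without overlap. Among single miRNAs 37 of 388 (9.54%) had HD and LD libraries without overlap, and 0 of the 10 references passed the rule of the study. Marker sums of HD and LD overlapped for every cell type list. Leukocyte miRNAs summed to 9862 to 15883 RPM in HD and 13591 to 23425 RPM in LD. By the rule, 2 of 7 were lower in HD, as was 1 of 2 endothelial miR-126 arms, beside 13 of 388 (3.35%) miRNAs. No marker of the other cell type lists passed, though the median erythroid log2 fold change was -1.66. The part of these cells in the level of miR-423 was not tested.

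Averaged over the protein phenotypes, miR-423-5p was 0.82 higher on the log2 scale in lactation than in the non-lactating period (SE 0.22, 1.76-fold), and miR-423-3p was 0.56 higher (SE 0.23, 1.47-fold). By size these were the 70th and the 102nd highest log2 fold changes of the 388 miRNAs. The stage comparison moved a large part of the profile by limma, with 172 of 388 miRNAs (44.3%) past an adjusted p of 0.05, 86 (22.2%) of them higher in lactation, and 196 (50.5%) at an unadjusted p under 0.05. Without size factors the difference was 0.71 for the 5p arm and 0.45 for the 3p arm. Scaling to the 10 reference miRNAs put the 5p difference at 1.07 and the 3p difference at 0.81. Without HP replicate 1 the 3p difference was 0.37, and without LD replicate 1 it was 0.70.

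**Figure D3:**
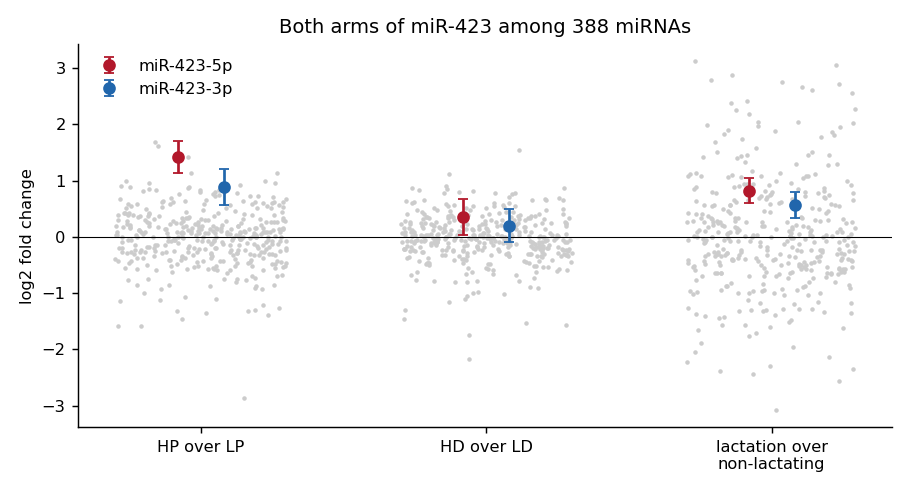
Log2 fold changes of all 388 miRNAs (grey points, spread sideways for legibility) in 3 comparisons, with miR-423-5p (red) and miR-423-3p (blue) and bars of 1 SE. Both arms sit near the upper edge in HP over LP (1.42 and 0.89), near 0 in HD over LD (0.35 and 0.20), and inside a wide cloud in lactation over non-lactating (0.82 and 0.56).

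The stage difference of both arms was larger between the high protein groups than between the low protein groups, and the gap between these differences was not tested. HP exceeded HD by 1.34 on the log2 scale for miR-423-5p and by 0.90 for miR-423-3p, without overlap of the libraries, but the HP libraries were those in which both arms were known to be high. LP exceeded LD by 0.29 (SE 0.31) for the 5p arm and by 0.22 (SE 0.33) for the 3p arm, with overlapping libraries, and LP was the low side of the same choice. In LP against LD 86 of 388 miRNAs (22.2%) passed the adjusted threshold, 47 (12.1%) with the higher level in lactation. The ratio of the arms followed the same order, 0.45 higher in HP than in HD and 0.07 higher in LP than in LD. Averaged over both phenotypes it was 0.26 higher in lactation (SE 0.19). Of the 19 precursors, 5 (26.3%) had a ratio past an adjusted p of 0.05 by limma for stage, 1 of them (5.26%) towards the 5p arm. That count was 3 without LP replicate 3 and 9 without LD replicate 1.

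Markers of some cell types and the number of miRNA reads moved with the stage. Over all miRNAs, 172 of 388 (44.3%) had an adjusted p under 0.05 by limma, 86 (22.2%) of them higher in lactation. Epithelial markers summed to 143945 RPM or more in each lactation library and to at most 80288 RPM in the non-lactating ones, with 7 of 8 higher in lactation by the adjusted p. The largest part of this sum was miR-148a, at a mean of 90130 RPM over the 12 libraries, beside 13729 RPM for the next, miR-141. Leukocyte markers summed to 6159 to 9292 RPM in lactation and 9862 to 23425 RPM in the non-lactating period, with 4 of 7 lower in lactation. Endothelial miR-126 arms were higher in lactation for 2 of 2, but their sums overlapped. The lowest was 10665 RPM in lactation and the highest 10738 RPM in the non-lactating period. Smooth muscle and stromal markers were lower in lactation for 2 of 6. Of the erythroid markers 0 of 4 passed, and of the skeletal muscle markers 0 of 3. The part of these cells in the stage difference of miR-423 was not tested, and no marker found in the table was at 0 in any library.

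Within the table, miR-423 was one of the precursors with the most even arms and one of the steadiest in its ratio. Of the 19 precursors with both arms at a mean of at least 10 RPM, out of 38 with both arms listed, 7 had more 5p than 3p in every library, 6 had more 3p in every library, and 6, with miR-423 among them, changed sides. The mean log2 ratio of miR-423 over the 12 libraries was -0.44, the 4th nearest to 0 after miR-455, miR-151 and miR-1388, while the median distance from 0 was 2.60. Its SD over the 12 libraries was 0.34, the 2nd smallest after miR-151 at 0.20, with a median of 0.68 over the 19. Within groups the SD was 0.27 for miR-423 and 0.50 for the median precursor. Neither arm was a minor by-product here, since miR-423-5p ranked 44th to 94th and miR-423-3p 39th to 76th by level among the 388 miRNAs in the single libraries.

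MiR-423 arms have been used as references in small RNA work, so their spread was set beside that of the 10 reference miRNAs. Over the 12 libraries the SD of log2(normalized RPM + 1) was 0.75 for miR-423-5p and 0.55 for miR-423-3p, ranks 149 and 103 from the steadiest of 234 miRNAs with a mean of at least 10 RPM, whose median SD was 0.60. The median of the 10 references was 0.43, with 9 of 10 steadier than the 5p arm and 6 of 10 steadier than the 3p arm. The steadiest of them were miR-425-5p at 0.28 (rank 11), let-7i at 0.29 (rank 15) and miR-30e-5p at 0.31 (rank 20), and the least steady was miR-16a at 0.78 (rank 159). Within groups the arms were nearer the middle of the table, with SDs of 0.38 and 0.41 against 0.42 for the median miRNA and 0.31 for the median reference. The SD over all libraries contains the HP against LP difference by which both arms were chosen, and is a description. The references were not still either: by the adjusted p of limma, miR-103 rose in lactation by 1.06 (adjusted p = 0.000361), and miR-93 (-1.28, adjusted p = 4.28e-05) and miR-16b (-0.95, adjusted p = 0.0143) fell.

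**Figure D4:**
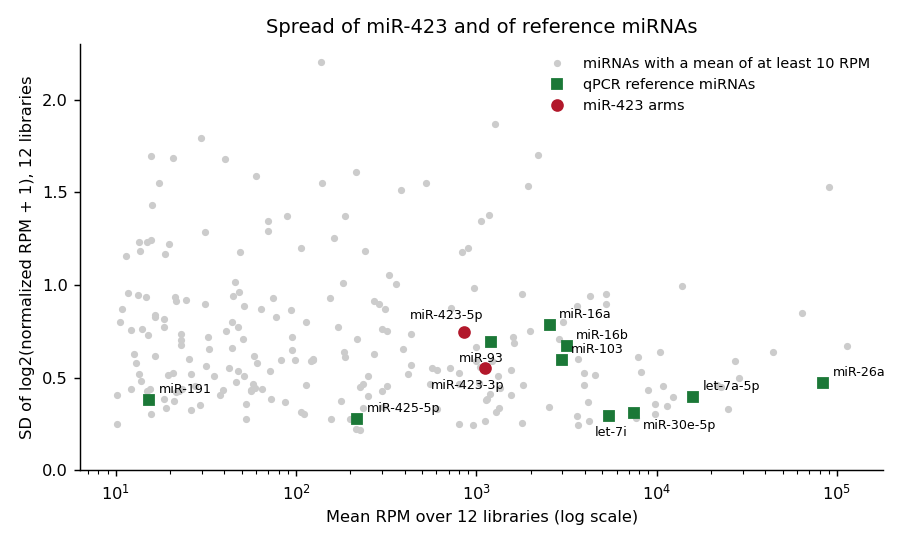
SD of log2(normalized RPM + 1) over the 12 libraries against the mean RPM on a log axis, for 234 miRNAs with a mean of at least 10 RPM (grey), the 10 reference miRNAs (green squares) and both arms of miR-423 (red). The 5p arm, at 0.75, lies above 9 of the 10 references and the 3p arm, at 0.55, above 6 of them.

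Pattern likeness was measured by Pearson's r over the 12 libraries among 233 other miRNAs with a mean of at least 10 RPM. The arms resembled each other at r = 0.91, and each had the same 4 further neighbours in its first 5. These were miR-320a (r = 0.91 with each arm), whose hairpin is made without Drosha, miR-877 (0.86 with the 5p and 0.87 with the 3p arm), a mirtron released by splicing, miR-128 (0.86 with each) and miR-340 (0.80 with each). By Spearman's rank correlation, likeness to miR-423-5p was 0.79 for miR-320a, 0.80 for miR-877, 0.64 for miR-128 and 0.57 for miR-340. To miR-423-3p it was 0.90, 0.97, 0.85 and 0.66 in the same order, and the arms were at 0.84. HP replicate 1 was the highest library for both arms and each neighbour, and r without it was not computed. All points share their library, its size factor and the 4 groups, so likeness of this kind contains the group differences. Within the 6 lactation libraries r with miR-423-5p was between 0.82 for miR-128 and 0.97 for miR-320a. These are the HP and LP libraries, so r there still contains the difference by which both arms were chosen. Within the 6 non-lactating libraries r with miR-423-5p was 0.84 for miR-320a, 0.93 for miR-877, 0.92 for miR-128 and 0.76 for the 3p arm, but -0.13 for miR-340. The neighbours were picked for a high r over all 12 libraries, so the values within a stage are a description.

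The neighbours stood at lower levels with HP on top. Mean normalized RPM of miR-320a were 82.4 ± 26.0 (SD, n = 3) for HP, 46.4 ± 3.91 for LP, 37.2 ± 8.17 for HD and 26.1 ± 11.2 for LD. For miR-877 they were 16.6, 8.45, 7.92 and 5.95 in the same order, and for miR-128 they were 297, 232, 175 and 155. MiR-340 was at 49.5 in HP and 25.1 in LP, and at 11.4 in HD and 11.3 in LD. For miR-340 and miR-128 the 3 LP libraries lay above all non-lactating ones, whereas for miR-320a, miR-877 and both arms of miR-423 they overlapped them. Averaged over the phenotypes, the log2 difference between the stages was 1.51 for miR-340, 0.99 for miR-320a, 0.81 for miR-877 and 0.68 for miR-128, each higher in lactation. These miRNAs were named for their likeness to miR-423, which contains that difference, so it is given without a test.

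**Figure D5:**
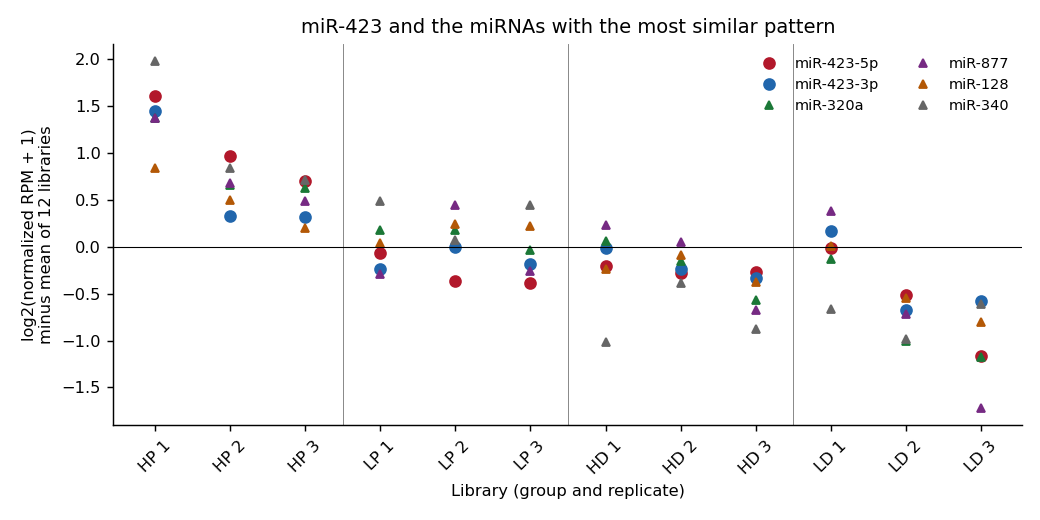
Log2(normalized RPM + 1) minus its mean over the 12 libraries, for both arms of miR-423 (circles) and the 4 miRNAs most like them (triangles), by library. All 6 are above 0 in the 3 HP libraries, HP replicate 1 is the highest library for each, and miR-340 is below the others in HD replicate 1.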

How the data were processed

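Small RNA libraries of 12 mammary biopsies were sequenced as single-end reads. The authors trimmed reads with Cutadapt 2.8 and Trimmomatic 0.36, kept lengths of 18 to 30 nt, mapped them to ARS-UCD 1.2 with Bowtie 1.1.1 allowing 1 mismatch, and quantified known miRNAs of miRBase 22.0 with miRDeep2. The deposited table gives RPM per library, which the authors call TPM, rounded to 2 decimals. Every value was a whole multiple of 1 read within 0.006 RPM, which gave the miRNA reads of each library. Intervals and floors cover counting error only.

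Of several precursors of a mature miRNA, the one with the highest mean was kept. Levels were log2(RPM / median-of-ratios size factor + 1), with size factors over the libraries of each fit and over all 12 for the values printed by library. Arm ratios were log2((5p RPM + 1)/(3p RPM + 1)) for precursors with both arms at a mean of at least 10 RPM. Both were fitted with limma 3.58.1 (R 4.3.3, mean-variance trend), on phenotype within each stage, and on the 4 group means for stage. The fits were tested on simulated data. HP against LP and HD against LD used the rule of the study (unadjusted p under 0.05, absolute log2 fold change over 0.8), and stage and arm ratios used a Benjamini-Hochberg adjusted p under 0.05. Groups came from the labels. Exact permutation tests (scipy 1.17.1) were two-sided. Replicates were different cows. Stage was planned with a test of miR-423, whose p are not given because the HP and LP libraries chose the members.

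The members, the lists and the tests were chosen with earlier results of these data known. Named miRNAs were both arms, the 5 with the highest Pearson r with each arm, and the reference list. Marker lists are given as sums. The exceptions, named after their values were seen, were miR-143, miR-148a, miR-141 and 3 leukocyte miRNAs (miR-150, miR-146a and miR-146b). Skeletal muscle markers (3 of 4 in the table, miR-206 not matched) summed to 90.2 to 735 RPM per library and endothelial ones to 4676 to 16528 RPM. Planned lists by seed and by GC content were not analysed here. Alternatives were RPM without size factors, pseudocounts of 0.1 and 5, low-value filters, limma without the trend, a replicate block, 1 fit of all 12 libraries and leaving out each library; scaling to the reference miRNAs and LP against LD were added after seeing the data.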

Additional observations from a re-analysis of the deposited data

Results flagged for a closer look

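One value stood apart from its group. Among the 6 lactation libraries, miR-423-3p was highest in HP replicate 1, at 2655 normalized RPM. On the log2 scale its gap to the next library was 0.664 of the whole range. The highest and the lowest library were examined in 6 such groups, 12 ends in all. Only this 1 gap was past the 95% critical value of Dixon's test for 6 samples. That critical value assumes 1 population, whereas the lactation group joins HP and LP, which were known to differ. Both arms were also chosen for being high in HP, so the gap is a description and no outlier is called. HP replicate 1 also held the fewest miRNA reads of the 12 libraries, at 6026620. In the same library the 5p arm held 45.1% of the miR-423 reads, beside 45.3% in LP replicate 1, and without it the HP over LP difference of miR-423-3p was 0.52 on the log2 scale.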

How the results depend on the processing

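Of the values recomputed under the alternatives, 205 stayed within the limits set: the side of the threshold for HD against LD and stage, the spread between replicates for HP against LP, which has no test, and a limit on the change of counts. A further 17 moved past these limits, 1 changed sign, 3 came to pass a threshold and 2 ceased to. HP over LP ranged over 1.37 to 1.50 for the 5p arm, 0.84 to 0.97 for the 3p arm and stayed at 0.53 for the log2 arm ratio; leaving out single libraries gave 1.16 to 1.61, 0.52 to 1.08 and 0.41 to 0.68. HD over LD ranged over 0.31 to 0.58 for the 5p arm, 0.16 to 0.43 for the 3p arm and stayed at 0.15 for the log2 arm ratio. Without single libraries HD over LD gave 0.06 to 0.59, 0.05 to 0.43 and -0.042 to 0.33, the negative ratio without LD replicate 3. Stage gave 0.68 to 0.96, 0.37 without HP replicate 1 to 0.70 without LD replicate 1, and 0.16 to 0.35. The side of the adjusted threshold in the stage fit, not read as a test of miR-423, changed for the 5p arm without size factors (0.71) and with LP against LD only (0.29), and for the 3p arm when scaled to the reference miRNAs (0.81) and without LD replicate 1. The causes were not tested.

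The miRNAs called in HP against LP numbered 39, and 22 with a pseudocount of 5, 24 without LP replicate 1 and 53 without HP replicate 1. In HD against LD, 13 became 3 without size factors, 7 with a pseudocount of 5, 6 without HD replicate 2, 8 without LD replicate 2 and 36 without LD replicate 1. For stage, 172 became 113 of 234 with a mean of at least 10 RPM, 86 with LP against LD only, and 139 to 182 without single libraries. Arm ratios called in HP against LP went from 0 to 3 without LP replicate 2, in HD against LD they were 0 in the fit of all 6 libraries (unadjusted 1 of 19) and 0 without any 1 library, and for stage they went from 5 to 8 of 38 with no filter, 3 without LP replicate 3, 9 without LD replicate 1, and 0 with LP against LD only (unadjusted 2 of 19). Scaling moved the split of higher and lower calls from 16 and 23 to 18 and 22 without size factors and 23 and 16 with the references in HP against LP, from 5 and 8 to 3 and 0 and to 2 and 8 in HD against LD, and from 86 and 86 to 56 and 82 and to 102 and 55 for stage. The median of all miRNAs was then 0.16 in HD against LD and -0.10 for stage without size factors, and 0.16 for stage with the references.

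The cows were different animals, so replicate numbers did not pair them. Deviations of same-numbered libraries correlated at -0.20, -0.26 and 0.01 in HP and LP, and at 0.54, -0.11 and 0.50 in HD and LD. The source of the positive values for replicates 1 and 3 of HD and LD was not tested. With the replicate number as a block, the 3p stage difference stayed at 0.56 and changed its side of the threshold, and 1 arm ratio was called in HP against LP; the block changed no other call of miR-423. The planned count models were not run: the deposited values are RPM, and the libraries held too few low values to check the recovered reads to the standard set for such models. With 3 cows a group, the SEs of 0.28 to 0.33 limit the smallest difference in level that could be called.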
